A study of Mus musculus with 2 samples.

Results

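Cycling type 1 conventional dendritic cells (cDC1) of the mouse thymus were studied as a set of 1212 cells, 6.37% of the 19019 cells with a single genotype hashtag. Members were chosen by measured values: the raw counts of unique molecular identifiers (UMIs) of 12 genes in the same cells. A member held at least 2 UMIs of Xcr1 and Clec9a together, the receptors that mark cDC1, and at least 3 of Mki67 and Top2a together, which mark dividing cells. It held at most 1 UMI of Ccr7 and Fscn1 together (activated, migrating dendritic cells), at most 1 of the genes Cd3d, Cd3e and Cd3g (T cells) and at most 2 of C1qa, C1qb and C1qc (macrophages). The set held 763 cells from B6 wild-type mice (labelled B6WT, here WT) and 449 from Mgl2DTR_eGFP mice (Mgl2DTR). In that name DTR stands for a receptor for diphtheria toxin and eGFP for a fluorescent protein. Both kinds of mice were 7 weeks old. The Mgl2DTR mice received 500 ng of diphtheria toxin for 48 hours, and the labels do not say whether WT mice received it. Thymi were digested with collagenase D, CD90.2+ thymocytes were depleted, and live cells were sorted after antibody staining for both CD11c and CD11b. The labels call the tissue cells thymocytes and describe 1 joint gene expression sample of both genotypes (10x Chromium 3′ v3), in which a hashtag gave each cell its genotype. Each of the 2 deposited gene tables held single-hashtag cells of 1 genotype only, so genotype and table cannot be told apart. No animals are named, so each genotype is 1 library without replicates. No test between genotypes was therefore possible, and every interval given is an exact 95% interval for counting error only.

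cDC1 are the dendritic cells that cross-present antigen to CD8+ T cells, and in the thymus they also hand on self antigens made by epithelial cells. They depend on the transcription factors Irf8 and Batf3 and on the growth factor receptor Flt3, and they are short-lived cells that keep dividing in the tissue. A dividing cell first licenses its replication origins and copies DNA in S phase, driven by E2F factors and cyclin E, then condenses and separates its chromosomes in G2 and M phase with cyclins A and B, a programme that the B-Myb and FoxM1 factors switch on.

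Members were deeply sequenced cells. Their median total was 21566 UMIs in WT and 20835 in Mgl2DTR, against 12860.5 and 12923 in resting cDC1, the 2124 cells that met the same rule but held 0 UMIs of Mki67 and Top2a. All single-hashtag cells had a median of 7442 UMIs. A threshold in raw UMIs is passed more easily by a deep cell, so depth and the rule cannot be told apart in full. After each cell was thinned to 5000 UMIs, the cells that met the rule had raw medians of 22959 (WT) and 22306 (Mgl2DTR), against 14214.5 and 14271 for resting cells, so the gap remained. Thinning left out 26 WT and 16 Mgl2DTR members as too shallow. The gene tables shared 0 cell barcodes.

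Markers of cDC1 and of division were higher in members than in the other cells. Xcr1 stood at 495.5 CPM (its UMIs scaled to a fixed total per set) in WT members and 186 CPM in the other WT cells, and Clec9a at 109 and 46.0 CPM. Top2a stood at 537 and 149 CPM in WT, and at 541 and 161 CPM in Mgl2DTR. Those genes chose the members, so the values only describe the choice. Markers of division that the rule did not read were also high. Rrm2, a subunit of the enzyme that makes deoxynucleotides, stood at 130 CPM in WT members and 28.0 CPM in other WT cells, and at 124 and 48.5 CPM in Mgl2DTR. Ube2c, which helps the anaphase-promoting complex end mitosis, stood at 578 and 134.5 CPM in WT, and at 573.5 and 128 CPM in Mgl2DTR.

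The edge of the rule was gradual. The 184 cells with 2 UMIs of Mki67 and Top2a, just outside, held 1597 CPM of the S phase list and 3376 CPM of the G2/M list, both without Mki67 and Top2a. The 96 cells with 3 UMIs, just inside, held 1826 and 4484 CPM. Rrm2 stood at 15.9 CPM outside and 25.4 CPM inside, and Ube2c at 71.0 and 121 CPM. On the lineage side, 129 cycling cells held 1 UMI of Xcr1 and Clec9a and 59 held 2.

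Cycling cells made up 31.2% (29.34 to 33.05) of the 2448 WT cells that passed the cDC1 part of the rule and 28.3% (26.1 to 30.6) of the 1587 Mgl2DTR cells. The ratio of Mgl2DTR over WT was 0.908 (0.806 to 1.02), an interval that includes 1 by a small margin. Of all single-hashtag cells, members were 6.59% in WT and 6.04% in Mgl2DTR, a ratio of 0.917 (0.814 to 1.03). Over 7 alternatives the first ratio ran from 0.868 to 0.914, and in 4 of them the interval ended below 1, at 0.987 with at least 5 UMIs of Mki67 and Top2a, 0.993 with at least 4 of Xcr1 and Clec9a, 0.999 in the upper part of the hashtag margin and 0.998 without cells holding markers of other types. The lower share in Mgl2DTR is therefore at the limit of counting error, with no replicate to judge it by. The level of both shares moved with the rule. With the rule applied to cells thinned to 5000 UMIs they were 21.2% and 19.4%, with a ratio of 0.914 (0.776 to 1.08).

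Sequences upstream of the genes that marked the members were taken from RefSeq promoters of build GRCm38.p6. Each reference promoter runs from 250 bases before to 50 after the start of the gene. Searched on both strands were the cell cycle homology region (TTTGAA or TTCGAA), bound by the complex with B-Myb, the CCAAT box (CCAAT), bound by NF-Y, and E2F sites (TTTCGCGC, TTTGGCGC, TTTCCCGC or TTTGCCGC). No motif searched contains another. Shares are of genes, and a gene counted when any of its promoters held the motif. Of the 50 G2/M genes higher in members than in resting cDC1, 44 had a promoter in the table. Of these, 61.4% held both a homology region and a CCAAT box, against 8.61% of all 27025 genes there. The homology region alone was in 77.3% of them and in 21.7% of all. Of the 41 S phase genes that were higher, 30 had a promoter, and 40% held an E2F site, against 2.61% of all. E2F sites were in 6.82% of the G2/M genes, and the homology region in 20% of the S genes. CCAAT boxes were in 70% of the S and 75% of the G2/M genes, against 41.1% of all. A match describes letters and does not show that a factor binds there. The upstream part is shown for 1 gene of each list, to let the sites be seen in place. Each had the largest ratio among genes with 1 promoter entry and the motifs there, with 1 chromosome left out. Kif11 encodes a kinesin that pushes spindle poles apart, and its region is on chromosome 19, chr19:37376132-37376381, plus strand. Cdc6 loads the replicative helicase at origins, and its region is on chromosome 11, chr11:98907901-98908150, plus strand. Both run 5′ to 3′ and end at the base before the start. Capitals mark the CCAAT box and, nearer the start, the homology region in Kif11, each read on the minus strand, and the E2F site in Cdc6.
Kif11: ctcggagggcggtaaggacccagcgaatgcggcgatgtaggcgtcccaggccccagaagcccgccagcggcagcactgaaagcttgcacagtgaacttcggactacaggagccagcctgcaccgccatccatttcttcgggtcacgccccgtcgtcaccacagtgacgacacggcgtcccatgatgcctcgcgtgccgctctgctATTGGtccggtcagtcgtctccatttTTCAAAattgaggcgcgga
Cdc6: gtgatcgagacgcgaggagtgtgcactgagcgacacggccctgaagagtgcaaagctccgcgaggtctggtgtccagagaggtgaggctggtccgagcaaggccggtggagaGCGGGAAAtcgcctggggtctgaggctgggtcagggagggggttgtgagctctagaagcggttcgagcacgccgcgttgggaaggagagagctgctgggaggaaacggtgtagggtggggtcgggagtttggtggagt

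Against resting cDC1, members held most measured genes of the division lists at higher levels, and few cDC1 identity genes were called. A call needed a CPM ratio of 1.5 or more, up or down, and an interval that stayed on the same side of 1, in WT and in Mgl2DTR alike, among genes with at least 50 summed UMIs. Of 9730 measured genes, 945 were called higher (9.71%) and 507 lower (5.21%). Both sets were chosen on Mki67 and Top2a in these cells, so the contrast is a description, and nothing is read from the share called. All 50 measured G2/M genes were higher, with a median log2 ratio of 4.64, and 41 of 42 S phase genes, with a median of 2.12. The median of all measured genes was -0.03.

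**Figure D1:**
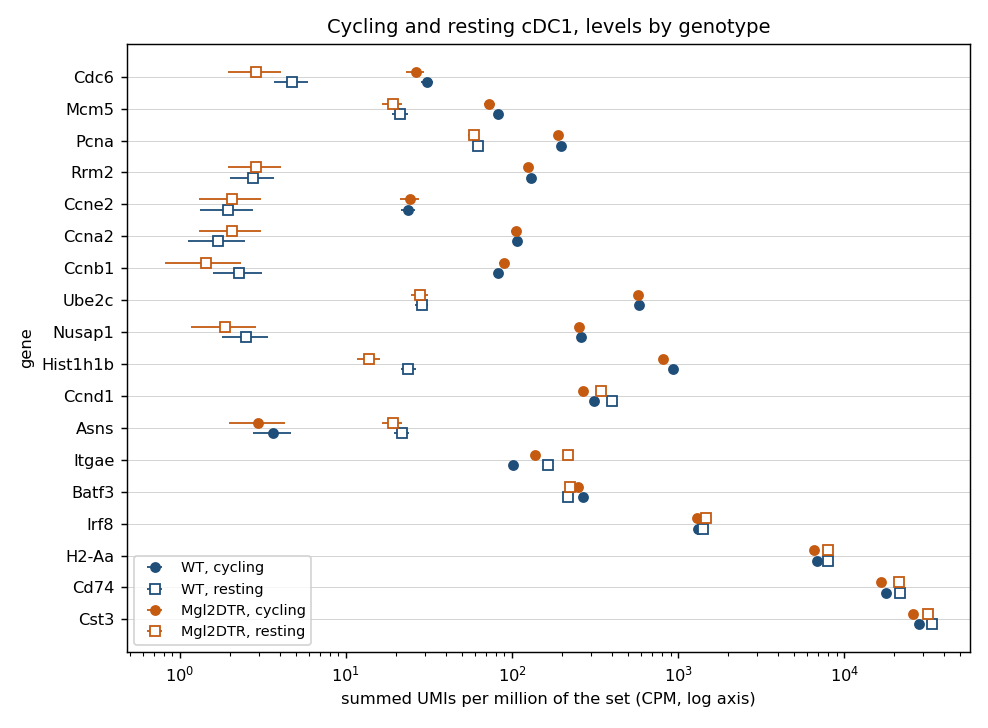
Levels of 18 genes in cycling (filled circles) and resting (open squares) cDC1, in CPM on a log axis, for WT and Mgl2DTR; bars are exact 95% Poisson intervals. S, G2/M and histone genes lie far apart between the 2 sets, as Ube2c at 578 and 28.5 CPM in WT, while Batf3, Irf8, H2-Aa, Cd74 and Cst3 lie close together.

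Among S phase genes, the origin licensing and helicase genes were higher in 18 of 18 measured. Mcm5, a subunit of the helicase, stood at 82.0 CPM in WT members and 21.2 CPM in resting cells, and at 72.9 and 19.1 CPM in Mgl2DTR. Its ratios were 3.86 (3.42 to 4.36) and 3.82 (3.27 to 4.48). Cdc6 stood at 30.8 and 4.70 CPM in WT and at 26.2 and 2.86 CPM in Mgl2DTR. Cyclin E, which starts S phase, followed: Ccne2 stood at 23.7 and 1.94 CPM in WT, and at 24.3 and 2.06 CPM in Mgl2DTR. DNA synthesis and nucleotide supply genes were higher in 28 of 29. Rrm2 went from 2.76 CPM in resting WT cells to 130 CPM in members, and from 2.86 to 124 CPM in Mgl2DTR. Tyms, which makes thymidylate, stood 9.32 and 9.38 times higher in members of the 2 genotypes.

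Mitotic genes differed most. Of 52 spindle and kinetochore genes, 51 were higher, with a median log2 ratio of 4.99. Nusap1, which binds and bundles spindle microtubules, stood at 259 CPM in WT members and 2.51 CPM in resting cells, and at 254 and 1.88 CPM in Mgl2DTR, ratios of 103 (75.8 to 145) and 135 (88.1 to 219). Ccna2 (cyclin A) stood at 106 and 1.69 CPM in WT and at 105.5 and 2.06 CPM in Mgl2DTR. Ccnb1 (cyclin B) stood at 82.1 and 2.26 CPM in WT and at 89.2 and 1.43 CPM in Mgl2DTR. Both cyclins were thus near 0 in resting cells and clearly present in members. The 12 highest called ratios belonged to Hist1h2af, Nusap1, Pbk, Kif2c, Prc1, Kif18b, Ncapg, Shcbp1, Aspm, Esco2, Hmmr and Hist1h3b.

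Cyclins and their partners did not all follow. Of 36 measured cyclin, CDK and regulator genes, 25 were higher and 0 lower. Cdk1, the mitotic kinase, was 12.4 (10.8 to 14.4) and 16.1 (13.3 to 19.6) times higher. Ccnd1, a D-type cyclin that couples growth signals to the cycle, was not called: it stood at 312 CPM in WT members and 398 CPM in resting cells, and at 267 and 342 CPM in Mgl2DTR. Ccnd3, another D-type cyclin, stood at 101 and 76.7 CPM in WT. The D-type cyclins were therefore already present in resting cDC1.

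Clustered histone genes, whose transcripts are made in S phase and mostly lack the poly(A) tail that the kit captures, were higher in 44 of 47 measured. Hist1h1b stood at 925 CPM in WT members and 23.7 CPM in resting cells, and at 807 and 13.7 CPM in Mgl2DTR. Many of these genes are near-identical copies, so single histone values are uncertain.

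Few cDC1 identity genes were called. Of 26 cDC1 identity genes, 0 were higher and 2 lower, with a median log2 ratio of -0.13. Of all measured genes, 5.21% were called lower. The identity genes summed to 34918 CPM in WT members and 40811 CPM in resting cells, and to 32507 and 39264 CPM in Mgl2DTR. Their intervals for counting error did not overlap, so the list was a smaller part of all UMIs in members. Members held more UMIs per cell, with WT medians of 21566 against 12860.5. The lower CPM therefore does not show fewer UMIs of these genes per cell, and the spread over cells was not measured. Irf8 stood at 1318 CPM in WT members and 1416 CPM in resting cells, and at 1297 and 1480 CPM in Mgl2DTR. Batf3 stood at 266 and 216 CPM in WT and at 250.5 and 223 CPM in Mgl2DTR. The 2 lower genes were Itgae, the integrin CD103, at 101 and 164 CPM in WT and 137 and 219 CPM in Mgl2DTR, and Snx22, at 59.1 and 96.6 CPM in WT and 60.9 and 109 CPM in Mgl2DTR. Antigen presentation genes were also somewhat lower in CPM, with the same limit, mostly without reaching the fold needed for a call. The 13 class II presentation genes summed to 39826 CPM in WT members and 47808 CPM in resting cells, and to 37968 and 47580 CPM in Mgl2DTR, with intervals that did not overlap. None of the 13 was called, with a median log2 ratio of -0.32: H2-Aa stood at 6813 and 7969 CPM in WT and at 6551 and 8011 CPM in Mgl2DTR. Of 19 class I and cross-presentation genes, 1 was lower. This was Cybb, a subunit of the phagocyte oxidase, at 25.8 CPM in WT members and 54.6 CPM in resting cells, and at 40.4 and 72.8 CPM in Mgl2DTR.

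**Figure D2:**
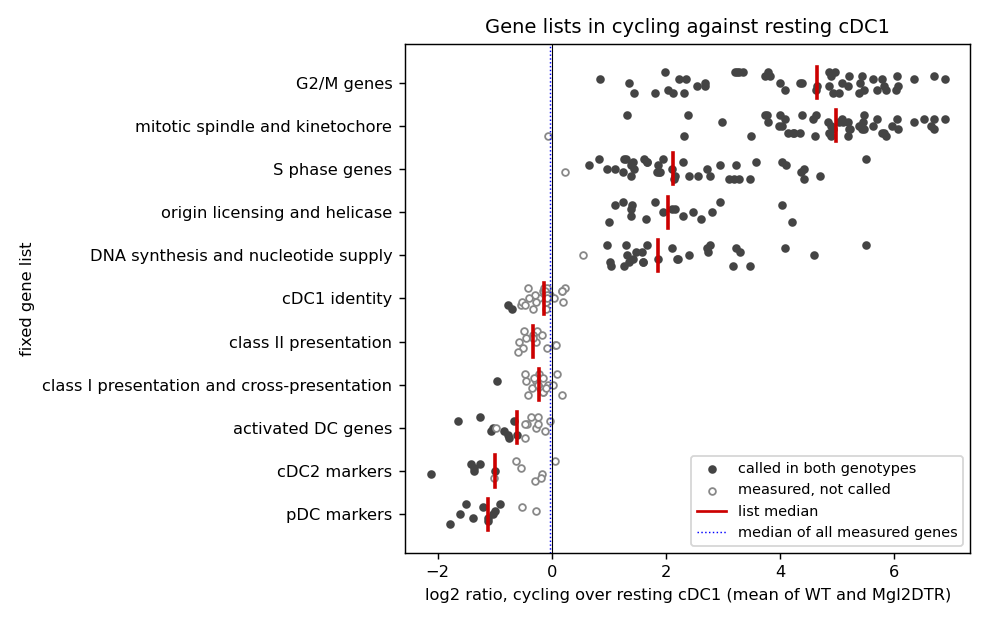
Log2 ratio of cycling over resting cDC1 (mean of WT and Mgl2DTR, x axis) for the measured genes of 11 fixed lists (y axis); filled points were called in both genotypes, red bars are list medians and the dotted line is the median of all measured genes. The 5 division lists lie above 0, with medians up to 4.99, the identity and class II lists have medians of -0.13 and -0.32, and the cDC2 and pDC lists lie below.

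Among the 507 genes lower in members, 25 were on the fixed lists of other dendritic cell types and states. Of 12 markers of plasmacytoid dendritic cells (pDC), 10 were lower. Siglech stood at 43.0 CPM in WT members and 108 CPM in resting cells, and Tcf4, the factor that maintains pDC, at 69.5 and 131 CPM. The summed level of the pDC list was 1132 CPM in WT members and 1844 in WT resting cells. It was 1775 CPM in WT cells of the T cell gate (at least 3 UMIs of the CD3 genes). In Mgl2DTR the levels were 1129, 2066 and 1607 CPM. The T cell gate thus lay below resting cDC1 and above members in both genotypes. In WT that gate also held 24664.5 CPM of the class II list and 14603 CPM of the cDC1 identity list. It is therefore no baseline free of dendritic cell genes. The part of RNA from other cells in the result was not tested. Of 13 measured markers of type 2 dendritic cells, 6 were lower, and of 19 activated dendritic cell genes, 9 were lower, among them Cd40, Cd80 and Cd83. With cells thinned to 5000 UMIs, 3 of 14 measured activation genes were lower. Neutrophil markers went the other way: 5 of 11 were higher in members, and 1 of 7 measured once cells holding markers of other types were left out. Those markers included neutrophil markers, so that fall was partly set by the filter.

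The 12 lowest ratios included Asns, Trib3 and Chac1, known targets of Atf4 that no fixed list held and that were grouped after their values were seen. Asns, which makes asparagine, stood at 3.64 CPM in WT members and 21.7 CPM in resting cells, and at 2.96 and 19.1 CPM in Mgl2DTR. Its ratios were 0.168 (0.125 to 0.222) and 0.155 (0.101 to 0.231). Trib3, a brake on the same response, had 14 UMIs in WT members and 54 in resting cells, and 2 and 52 in Mgl2DTR. Chac1, which breaks down glutathione, stood at 1.36 and 6.08 CPM in WT. Mxd4, which opposes Myc, stood at 9.24 and 30.6 CPM in WT and at 10.5 and 38.0 CPM in Mgl2DTR. The other low ratios were H2-M2, Klk1b27, Mctp2, Cd209d, Dab2, Nckap5l, Elavl4 and Klk1.

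Compared with other dividing cells of the sort, members differed in most cDC1 identity genes and in few S phase and G2/M genes. The 633 cells that met the rule with 0 UMIs of Xcr1 and Clec9a held 91797.5 CPM of the 12 neutrophil markers in WT and 96361 CPM in Mgl2DTR, against 2022 and 5606 CPM in members. Those 633 cells were a mixture whose levels differed by genotype. The class II list summed to 26351 CPM in WT and 6651 CPM in Mgl2DTR, and the cDC2 markers to 1577 and 508 CPM. Of 9516 measured genes, 654 were called higher in members (6.87%) and 1163 lower (12.2%). The rule used Xcr1 and Clec9a of the same cells, so this is again a description. Of 26 cDC1 identity genes, 25 were higher: Ppt1, a lysosomal enzyme, stood at 974 CPM in WT members and 65.5 CPM in the others, and Cadm1, an adhesion molecule of cDC1, at 104 and 6.43 CPM. Of 42 S phase genes 0 were higher and 1 lower, of 50 G2/M genes 0 were higher and 1 lower, and of 53 clustered histone genes 0 were higher and 1 lower. Of 36 cyclin, CDK and regulator genes 0 were higher and 8 lower: Ccnd2, Ccnd3, Ccne2, Cdk2, Cdk6, Rb1, Rbl2 and E2f2. Ccnd3 stood at 101 CPM in members and 205 CPM in the others in WT, and at 104 and 204 CPM in Mgl2DTR, and Cdk6, its partner kinase, at 25.5 and 59.3 CPM in WT. Both were thus lower in dividing cDC1 than in this mixture of other dividing cells.

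Within the members, cells were ordered by the share of S phase UMIs among S phase plus G2/M UMIs of 21 S and 25 G2/M ordering genes, taking every second gene of each list and leaving out Mki67 and Top2a. Cells at 2/3 or more were called S-leaning and cells at 1/3 or less G2/M-leaning, and 3 WT cells with under 5 ordering UMIs could not be placed. S-leaning cells were 15.7% (13.2 to 18.5) of WT and 16.3% (12.97 to 20) of Mgl2DTR members, and G2/M-leaning cells 54.5% (50.9 to 58.1) and 59.7% (54.99 to 64.26). The Mgl2DTR over WT ratios were 1.03 (0.762 to 1.39) for S-leaning and 1.09 (0.935 to 1.28) for G2/M-leaning cells, both with intervals that include 1. These shares describe ranges of a score, not kinds of cell: 158 members lay within 0.05 of the S cut and 118 within 0.05 of the G2/M cut. With all S and G2/M genes in place of every second one, S-leaning cells fell to 0.655% in WT and 1.34% in Mgl2DTR, and at cuts of 0.75 and 0.25 they were 5.37% and 6.24%. The rule genes differed along the order as well: S-leaning members held a median of 7 (WT) and 5 (Mgl2DTR) UMIs of Mki67 and Top2a, and G2/M-leaning members 21.5 and 21.

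The genes held out of the ordering followed it. In 5 equal steps of the order value, the 21 held-out S genes went from 416 CPM at the G2/M end to 2094 CPM in the fourth step in WT, and from 386 to 2001 CPM in Mgl2DTR. The 25 held-out G2/M genes went from 9287 to 2944 CPM in WT over the same steps, and from 8990 to 2929 CPM in Mgl2DTR. The last step, at the S end, held 13 cells of each genotype, too few to read. Histones peaked in the middle: in WT the clustered histone genes summed to 3973, 9285, 8997 and 2693 CPM over the first 4 steps, and in Mgl2DTR to 3576, 7642, 9437 and 2942 CPM. Held-out and ordering genes come from the same lists and the same cells, so this only describes how the lists move together.

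**Figure D3:**
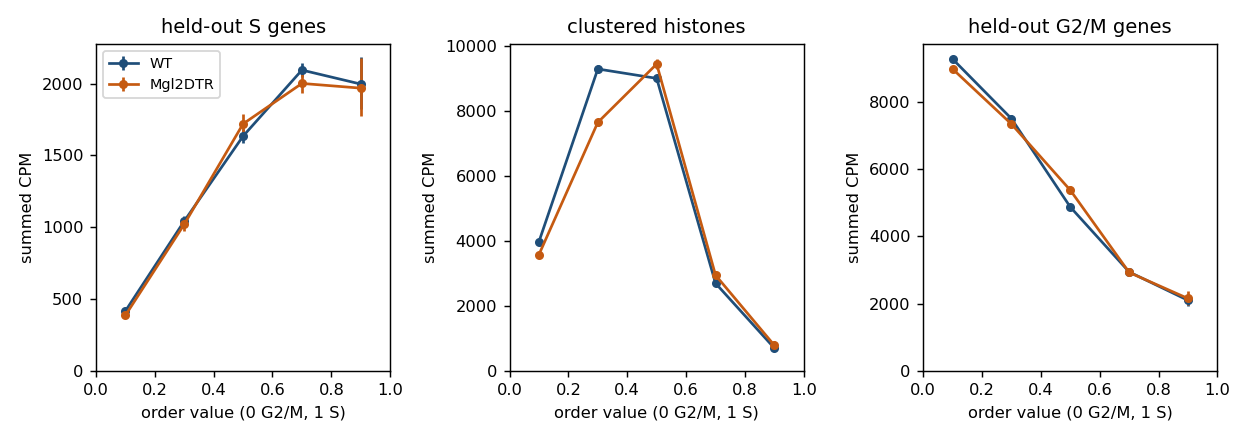
Summed CPM (y axis) of held-out S genes, clustered histone genes and held-out G2/M genes in 5 equal steps of the order value (x axis, 0 all G2/M and 1 all S ordering UMIs) for WT and Mgl2DTR members; bars are exact 95% Poisson intervals. S genes rise and G2/M genes fall towards the right, and histones peak in the middle steps, at 9285 CPM (WT) and 9437 CPM (Mgl2DTR); the last step rests on 13 cells per genotype.

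S-leaning against G2/M-leaning members, 7581 genes were measured, with 361 called higher (4.76%) and 388 lower (5.12%) in both genotypes. Ccne2 stood at 59.4 CPM in S-leaning and 1.85 CPM in G2/M-leaning WT cells, and at 73.4 and 1.39 CPM in Mgl2DTR. Ung, which removes uracil from DNA, stood at 46.2 and 1.74 CPM in WT, and E2f1, a factor that drives S phase genes, at 62.6 and 5.91 CPM. In the other direction, Ube2c stood at 15.1 and 1019 CPM in WT and at 13.8 and 897 CPM in Mgl2DTR, and Cenpf, a kinetochore protein, at 5.98 and 331 CPM in WT. Cdc25c, the phosphatase that turns on Cdk1, had 1 UMI in S-leaning and 229 in G2/M-leaning WT cells, and 0 and 125 in Mgl2DTR. Of 41 measured clustered histone genes, 35 were lower in S-leaning cells, where the middle of the order held the most.

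Identity and presentation genes differed little between the ends of the order. None of 13 class II genes was called between the ends: H2-Aa stood at 6607 CPM in S-leaning and 6962 CPM in G2/M-leaning WT cells, and at 6967 and 6710 CPM in Mgl2DTR. Of 26 cDC1 identity genes, 1 was called. This was Cd207, the lectin langerin, at 115 CPM in S-leaning and 57.7 CPM in G2/M-leaning WT cells, and at 93.0 and 57.5 CPM in Mgl2DTR. Epcam, an adhesion molecule, stood at 45.0 and 12.6 CPM in WT and at 55.9 and 20.3 CPM in Mgl2DTR. Cdkn1a, the p21 brake on CDKs, was also higher in S-leaning cells, at 86.9 and 29.4 CPM in WT and at 82.1 and 44.5 CPM in Mgl2DTR.

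Between genotypes, few genes of the members were called, and none of them on the S phase, G2/M, cDC1 identity or class II lists. Of 9974 measured genes, 288 were called higher in Mgl2DTR (2.89%) and 94 lower (0.942%). Those 4 lists held 42, 50, 26 and 13 measured genes. Their summed levels in WT and Mgl2DTR members still lay apart, with counting intervals that did not overlap. The S phase list stood at 2666 and 2485 CPM, cDC1 identity at 34918 and 32507 CPM, and class II at 39826 and 37968 CPM. The G2/M list went the other way, at 10017 and 10226 CPM. With 1 library per genotype these differences were not tested. Of 55 measured clustered histone genes, 3 were higher (Hist1h2ap, Hist1h2br and Hist1h4n) and 4 lower (Hist1h2ac, Hist1h2an, Hist2h2ab and Hist3h2ba). Hist1h2ap stood at 796.5 CPM in WT members and 1195 CPM in Mgl2DTR members, a ratio of 1.5 (1.46 to 1.54), with 1.31 in resting cDC1 and 1.58 in the T cell gate. It was higher in Mgl2DTR in the first 4 steps of the order, for example at 540 and 772 CPM in the first and at 1399 and 2393 CPM in the middle step. Near-identical copies make these single histone values uncertain. Irf8 stood at 1318 CPM (WT) and 1297 CPM (Mgl2DTR), a ratio of 0.984 (0.962 to 1.01), and Rrm2 at 130 and 124 CPM, a ratio of 0.956 (0.889 to 1.03). Mgl2, the gene that carries the receptor, stood at 11.5 CPM in WT (187 UMIs) and 2.86 CPM in Mgl2DTR (27 UMIs), a ratio of 0.248 (0.159 to 0.372). It was lower in resting cDC1 (0.406) and in cells of the T cell gate (0.348) too, so in cDC1 it checks the genotype labels only through low levels.

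**Figure D4:**
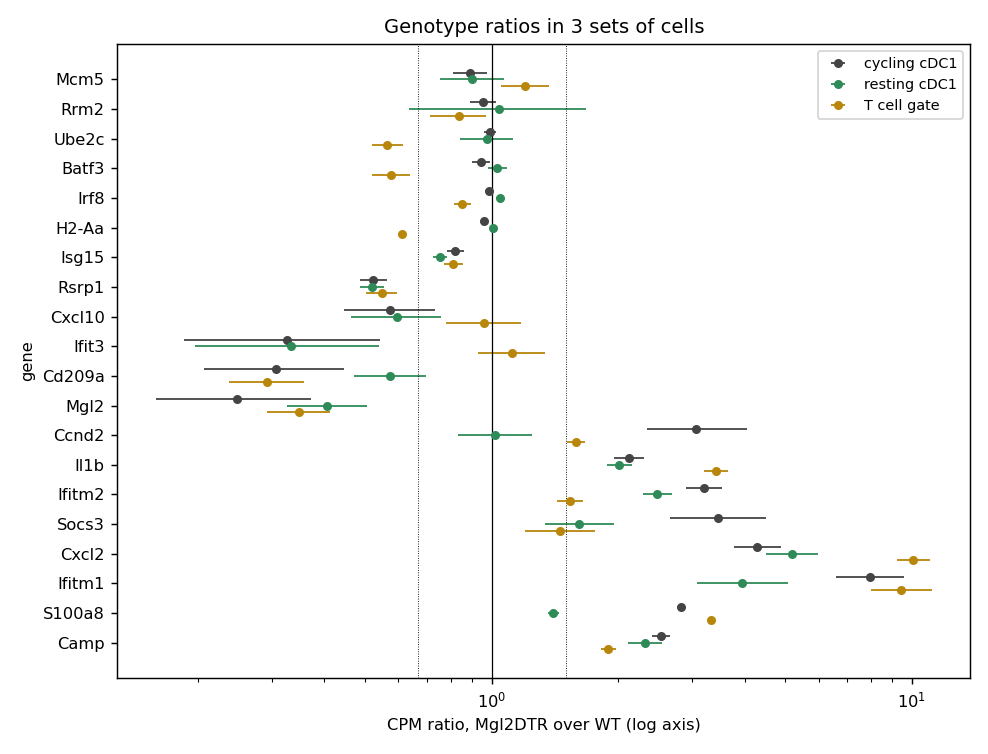
CPM ratio of Mgl2DTR over WT (log axis) for 20 genes in cycling cDC1, resting cDC1 and the T cell gate; bars are exact 95% intervals, and dotted lines mark a ratio of 1.5 either way. Mcm5, Rrm2, Ube2c, Batf3, Irf8 and H2-Aa lie near 1 in cycling cDC1, while Ccnd2, at 3.07, lies apart from its resting ratio of 1.02, and S100a8, at 2.82, lies near its ratio in the T cell gate.

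Of 36 cyclin, CDK and regulator genes, 1 was called, a share near the 2.89% of all measured genes called higher. Ccnd2, a D-type cyclin, stood at 5.24 CPM in WT members (85 UMIs) and 16.1 CPM in Mgl2DTR members (152 UMIs), a ratio of 3.07 (2.34 to 4.05). In resting cDC1 the ratio was 1.02 (0.831 to 1.25), and in the T cell gate 1.59. The difference between these ratios was not tested. Cells that gave it were spread out: 59 WT and 57 Mgl2DTR members held a UMI, and the top cell held 7.06% and 11.8% of each total. Its ratio was 2.74 without cells holding markers of other types, 2.28 in S-leaning and 2.60 in G2/M-leaning members.

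Inflammatory genes were higher in part. Of 19 NF-kB and inflammation genes 5 were higher, with a median log2 ratio of 0.28, and of 23 immediate early and handling genes 4, with a median of 0.39, against 0.01 over all measured genes. The summed immediate early list went from 3836 CPM (WT) to 5004 CPM (Mgl2DTR) in members. It went from 4047 to 5085 CPM in resting cDC1 and from 3473 to 4654 CPM in the T cell gate. That rise was therefore not particular to members. In other cycling cells the list stood at 4238 and 4175 CPM. Cxcl2, a chemokine for neutrophils, stood at 20.03 CPM in WT members and 85.9 CPM in Mgl2DTR members, a ratio of 4.29 (3.77 to 4.89). Its ratio was 5.19 in resting cDC1 and 10.1 in the T cell gate. Il1b stood at 62.7 and 133 CPM, a ratio of 2.12, with 2.02 in resting cDC1. Socs3, a brake on cytokine signals, stood at 5.48 and 18.9 CPM, a ratio of 3.45 (2.66 to 4.50), with 1.62 in resting cDC1. Dusp1, an early phosphatase, stood at 125 and 197 CPM, a ratio of 1.58. Interferon genes went both ways: of 22 measured, Ifitm1 (8.87 and 70.4 CPM) and Ifitm2 (37.8 and 121 CPM) were higher, while Ifit3 (5.85 and 1.90 CPM) and Cxcl10 (16.4 and 9.41 CPM) were lower. Isg15 was not called, at 331 and 271 CPM. In S-leaning members alone the ratios turned for Ifitm1 (0.264), Il1b (0.852) and Cxcl10 (1.27). Without cells holding markers of other types, 3 of 17 measured NF-kB genes were higher, and the ratios were 8.51 for Ifitm1 and 1.84 for Cxcl2.

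Most neutrophil markers were higher in Mgl2DTR members. Of 11 measured neutrophil markers, 9 were higher. S100a8 stood at 844 CPM (WT) and 2382 CPM (Mgl2DTR) members, a ratio of 2.82 (2.76 to 2.88). Camp, an antimicrobial peptide of neutrophil granules, stood at 169.5 and 429 CPM. The summed list level went from 2022 to 5606 CPM in members, from 3343 to 10806 CPM in the T cell gate, and from 1209 to 1762 CPM in resting cDC1. In Mgl2DTR, 1 member held 40.5% of the S100a8 UMIs and 1 held 58.7% of the Camp UMIs, against 16.8% and 36.6% in WT. Some members held at least 3 UMIs of 33 defining markers of T, B and NK cells, neutrophils, monocytes and macrophages. They were 57 WT members (7.47%, 5.71 to 9.57) and 50 Mgl2DTR members (11.1%, 8.38 to 14.4). The share was higher in Mgl2DTR. The separate intervals overlap, which does not show that the shares agree, and the difference was not tested. Of those 33 markers, 1 was at 0 in WT and 2 in Mgl2DTR members. With those 107 cells left out, 1 of 7 measured neutrophil markers was higher and 3 were lower. S100a8 had a ratio of 0.540, and 176 genes were called higher in place of 288. The filter itself used 6 neutrophil markers, of which 14 WT and 15 Mgl2DTR members held at least 3 UMIs. The change in neutrophil markers was therefore partly set by the filter, and nothing is read from it. In that setting, 0 of 42 S phase genes and 1 of 50 G2/M genes were called. The part of RNA or cells of other types in the neutrophil result was not tested.

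Of the 288 genes called higher, 265 were measured in resting cDC1 and 277 in the T cell gate. There 102 and 125 of them were also called higher, and 8 and 13 lower. Among all genes measured in members and in the other set, 209 and 429 were called higher in that set. Of the 94 lower genes, 86 and 84 were measured in the 2 sets, where 24 and 22 were also called lower and 1 and 5 higher. Among all such measured genes, 120 and 352 were called lower there. The number of genes measured in both sets was not counted. The overlap therefore cannot be set against a share of all genes, and nothing is read from it. A single cell gave over 50% of the UMIs of a genotype for 19 of the higher and 4 of the lower genes. Dcn, a matrix protein of fibroblasts, had 3 UMIs in WT and 198 in Mgl2DTR, 99.0% of them in 1 cell. Hbb-bs, a haemoglobin, had 1086 UMIs in WT, 99.0% of them in 1 cell, and 7 in Mgl2DTR. The other largest ratios were those of Igha, Ifitm1, Mgst1, Jchain, Ccl6, Cebpe, Chil3, Ptgs2, Gm47283 and Trem3. Rsrp1 was lower in the 3 sets compared: it stood at 184.5 CPM (WT) and 96.5 CPM (Mgl2DTR), a ratio of 0.523 (0.485 to 0.563) in members, 0.520 in resting cDC1 and 0.548 in the T cell gate. Cd209a, a marker of type 2 dendritic cells, stood at 11.7 and 3.60 CPM, a ratio of 0.307.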

How the data were processed

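Per the submitters' processing notes, the tools were Cell Ranger 6.0.0 with Seurat 4.0.4, and the mouse build was mm10. For the annotation used in counting, nothing was given in these sources. What the authors deposited for expression are unnormalised UMI counts of 20451 genes in 28926 cells. Their totals equal those in the deposited annotation for every cell. That annotation also holds a score, the margin of the strongest hashtag over the next, which the authors deposited. Of its columns, 8 were not used. No filter on cells beyond the single hashtag was applied, and no doublet caller was run, so doublets of 1 genotype stay in.

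Counts were summed over the cells of a set and scaled to the set's total UMIs as CPM, with exact Poisson intervals for levels, Clopper-Pearson intervals for shares and exact conditional intervals for ratios (level 95%). PCR duplicates are collapsed by UMIs, and the intervals cover counting error only. With 1 library per genotype no count model was fitted and no p-value was computed. A gene was named when it was among the 12 largest called ratios per direction with at least 100 summed UMIs, or among up to 6 members of each of 32 lists, or was Rrm2, Ube2c or Mgl2. The members, lists and rules were chosen with earlier results of these data known. A list's medians set a count of 0 on 1 side to 3. Calls were also run on simulated Poisson counts drawn from the summed UMIs, without spread between cells. That run cannot show how calls fare where 1 cell gives most UMIs of a gene. Tools were scipy 1.17.1 and numpy 2.4.6 for intervals, pandas 2.3.3 for sums and matplotlib 3.10.9 for plots, under Python 3.11.15. The design named a filter by 7 lists of other cell types. Every member held at least 3 UMIs of them, so 33 markers chosen after seeing the data took their place. The T cell gate was also chosen then. Alternatives covered scaling, depth, count minimum, thresholds, hashtag margin, other cell types and phase.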

Additional observations from a re-analysis of the deposited data

Results flagged for a closer look

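Several genes were called in opposite directions between genotypes in cycling and in resting cDC1, or in opposite directions between cycling and resting cells in the 2 genotypes. The differences were not tested.

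Igha, Igkc and Jchain, genes of antibody-secreting cells, were higher in Mgl2DTR members, with ratios of 8.64, 3.45 and 5.11, and lower in Mgl2DTR resting cDC1, at 0.0461, 0.163 and 0.0326. In Mgl2DTR, 1 member held 88.6%, 68.8% and 85.7% of their UMIs. Apod (1.94, and 0.629 in resting cells) and Nkg7 (2.34, and 0.265) showed the same pattern. Cstdc4 (0.0715, and 1.61) showed the reverse, with 60% of its WT UMIs in 1 member.

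Between cycling and resting WT cells, Igha, Igkc and Jchain had ratios of 0.0426, 0.0812 and 0.0345, against 7.98, 1.72 and 5.41 in Mgl2DTR. Tmem176a (0.522, and 1.51 in Mgl2DTR), Tmem176b (0.485, and 1.58) and Trbc1 (0.602, and 1.54) showed the same pattern.

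Of the 9829 cells with a pair of hashtags, which no comparison used, 656 met the rule (6.67%), with a median of 27290 UMIs, above the 21224.5 of members. The cells left out in this way were uneven between the gene tables. They were 3980 beside 11586 single-hashtag WT cells, and 5849 beside 7433 single-hashtag Mgl2DTR cells. Every share by genotype rests on the cells that remained.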

How the results depend on the processing

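The share of cDC1 in cycle (WT, then Mgl2DTR) was 21.2% and 19.4% with the rule on cells thinned to 5000 UMIs. It was 35.99% and 32.5% with at least 2 UMIs of Mki67 and Top2a, and 27.1% and 23.5% with at least 5. Without cells above 30000 UMIs it was 29.0% and 25.8%, and with at least 4 UMIs of Xcr1 and Clec9a 33.5% in WT. With all S and G2/M genes, 0.655% and 1.34% of members were S-leaning and 65.5% and 69.0% G2/M-leaning. At cuts of 0.75 and 0.25 the shares were 5.37% and 6.24% S-leaning and 46.1% and 49.0% G2/M-leaning. With at least 5 UMIs of Mki67 and Top2a, 12.1% of Mgl2DTR members were S-leaning.

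Counts of called genes fell mostly where fewer genes or cells were measured. Against resting cDC1, 253 genes were lower in thinned cells and 243 at a minimum of 200 summed UMIs. Against other cycling cells, 398 were higher and 562 lower in thinned cells, 571 lower at the minimum of 200, and 335 higher in the upper part of the hashtag margin. There the log2 ratio of Mpo turned to 0.47 and that of Zbtb46 to -0.22, and without the cells holding 33 markers of other types Klre1 turned to 0.48.

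Between genotypes, 159 genes were higher in thinned cells, 103 at the minimum of 200, 176 without cells holding the 33 markers, 185 without cells above 30000 UMIs and 122 in S-leaning members. By the mean of per-cell fractions 166 were lower, and at the minimum of 200 the count was 23. Of the 288 genes called higher, 230 were measured without the 33-marker cells. There 146 were still called and 12 were called lower. In S-leaning members only 62 of the 288 were measured, of which 16 were still called and 15 called lower.

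Some ratios of Mgl2DTR over WT turned. Without the 33-marker cells they were 0.964 for Anxa3, 0.287 for Camp, 0.738 for Chil3, 0.976 for Igha, 0.662 for Jchain, 0.123 for Mpo, 0.826 for Ngp, 0.338 for Nkg7, 0.540 for S100a8 and 0.482 for S100a9. Without cells above 30000 UMIs Jchain was at 0.703, Mpo at 0.502 and Trbc2 at 0.955. In S-leaning members Camp was at 0.0370, Cxcl10 at 1.27, Ifitm1 at 0.264, Il1b at 0.852, Mpo at 0.0536, Ngp at 0.138, Nkg7 at 0.0640, S100a8 at 0.0789 and S100a9 at 0.0824. In G2/M-leaning members Igha was at 0.923, Igkc at 0.772 and Runx2 at 0.952. Ccl5 was at 1.004 by per-cell fractions, Trbc2 at 0.990 in thinned cells, and Jchain at 0.768 without its top cell. The cause was not tested.

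No call among the named genes turned between cycling and resting cDC1 under the alternatives run. The filter on 7 lists of other cell types was not run, since it kept 0 members, and leaving out each gene table gave no ratio, since each holds 1 genotype. No paired analysis was possible because the cells carry no replicate numbers. With 1 library per genotype, depth bounds only the counting error.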
